A study of Mus musculus with 12 samples.

Results

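The genes described here encode the AMPA-type glutamate receptor and a few of the proteins that deliver and anchor it. They are the 4 subunit genes Gria1, Gria2, Gria3 and Gria4, the 2 cornichon genes Cnih2 and Cnih3, and the 2 scaffold genes Grip1 and Pick1. These 8 genes were chosen by name, among 39929 gene names in the tables, and all 8 were found at every time point. The tissue was the prefrontal cortex (frontal association, prelimbic and orbital cortex) of male mice 10 weeks of age, of the strain C57BL/6 in the labels and C57BL/6J in the study's methods. The mice received an intraperitoneal injection of saline or of cocaine (20 mg/kg) each day for 14 days, and the cortex was taken after the last injection at 2 h, at 24 h or at 7 d, with a saline group and a cocaine group for each time. Each of the 6 groups gave 2 libraries of polyadenylated RNA, and each library pooled 5 mice. The tables give 1 pooled FPKM (a count of sequenced fragments divided by transcript length and by library size, so a level per unit of length) for each group. The 2 libraries of a group cannot be separated in these values. No spread between replicates, SD or p-value could therefore be computed for any comparison, and the tables give no depth behind each value.

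AMPA receptors carry most of the fast excitatory current in the brain. Each receptor is an assembly of GluA1 to GluA4 subunits, encoded by Gria1 to Gria4, and the subunit mixture sets how calcium passes and how long the receptor stays at the synapse. Receptors that hold an edited GluA2 let little calcium through, and receptors without it are permeable to calcium, a property much studied in the nucleus accumbens after cocaine withdrawal. The cornichon proteins CNIH2 and CNIH3 bind the receptor as auxiliary subunits, help it leave the endoplasmic reticulum and slow its closing. GRIP1 and PICK1 hold PDZ domains that bind the carboxyl end of GluA2 and GluA3, GRIP1 as a scaffold and PICK1 as a protein tied to endocytosis of GluA2.

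Parts of the coding sequence show why the subunits are grouped in this way and why their reads can be assigned to separate genes. The first set is the stretch that encodes the pore loop, with the triplet of the Q/R site in capitals. This is the triplet that RNA editing changes in Gria2 transcripts, and an FPKM counts edited and unedited transcripts alike. The sequences are those of the longest complete coding transcript of each gene in GENCODE vM1.
Gria1, triplet 600 of the coding sequence: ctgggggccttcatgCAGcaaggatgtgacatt
Gria2, triplet 607 of the coding sequence: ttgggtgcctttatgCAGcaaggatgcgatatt
Gria3, triplet 612 of the coding sequence: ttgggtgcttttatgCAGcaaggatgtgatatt
Gria4, triplet 608 of the coding sequence: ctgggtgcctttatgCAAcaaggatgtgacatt
Over these 33 bases Gria2 and Gria3 differed at 2 and Gria1 and Gria2 at 5, and all 4 stretches encode the same amino acids. The reference triplet encodes glutamine in all 4 genes.

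The second set is the end of the coding sequence, the last 8 triplets before the stop, with the last 4 in capitals. In GluA2 and GluA3 these 4 triplets encode the end that the PDZ domains of GRIP1 and PICK1 bind.
Gria1: atgcccttgggaGCCACAGGATTG
Gria2: tatggcatcgagAGTGTTAAAATT
Gria3: tatggaacagaaAGTGTTAAGATC
Gria4: gctgtcattgcaTCGGACCTACCA
Gria2 and Gria3 shared 10 of the 12 bases in capitals and encode the same 4 residues there. Gria1 and Gria2 shared 2 of the 12, as did Gria2 and Gria4. The end is not the same in all transcripts of a gene: it was found in 3 of 5 complete transcripts of Gria3 and in 3 of 4 of Gria4, and the FPKM adds all of them. Across the whole coding sequence the subunit pairs had 68.7% (Gria1 and Gria4) to 72.8% (Gria2 and Gria4) identical aligned bases. The longest run of identical bases in any pair of their longest transcripts was 55, in Gria2 and Gria4, which is shorter than the reads (100 nt in the study's methods, 75 nt in the labels). Cnih2 and Cnih3 had 77.2% identical bases and a longest shared run of 19.

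In the GRCm38 build the genes lie on 8 chromosomes. Gria1 is at chr11:57011571-57330244, Gria2 at chr3:80681450-80804227, Gria3 at chrX:41400819-41678601 and Gria4 at chr9:4417893-4796234, by the RefSeq annotation. Cnih2 is at chr19:5092868-5098521, Cnih3 at chr1:181350459-181460641, Grip1 at chr10:119453238-120087267 and Pick1 at chr15:79229140-79249466. The loci of the 4 subunit genes in the tables hold no other gene. The Cnih2 locus also holds Yif1a, the Pick1 locus Slc16a8, the Cnih3 locus Gm16539 and Gm16547, and the Grip1 locus Helb and the antisense genes Grip1os1, Grip1os2 and Grip1os3. The libraries did not mark strand, so reads of Grip1 and of its antisense genes cannot be told apart. The Gria2 locus begins at position 80684936 at 2 h and 24 h and at 80684866 at 7 d, each inside the annotated gene. The rest of its 3′ end is thus not in the value used at any time. A small separate Gria2 locus was listed at 24 h, where saline had 0.465 FPKM and cocaine 0.664.

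All 8 genes were expressed in all 6 groups, and their order was the same in each. Cnih2 was the highest, at 148.4 to 169 FPKM over the 6 groups. Gria2 followed at 60.2 to 65.5, Gria3 at 43.3 to 46.8 and Gria1 at 39.0 to 41.7 FPKM. Below them came Cnih3 at 28.8 to 35.2, Gria4 at 20.6 to 25.2, Pick1 at 15.2 to 19.6 and Grip1 at 2.27 to 2.59 FPKM. No 2 neighbours in this order overlapped in their 6 values. The separate runs that made the 3 tables were normalized apart, which bears on levels set across times. Cnih2 stood above 96.8% of the 13244 genes kept at 2 h (a mean FPKM of at least 1 and both groups above 0), Gria2 above 91.1% and Grip1 above 16.3%.

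**Figure D1:**
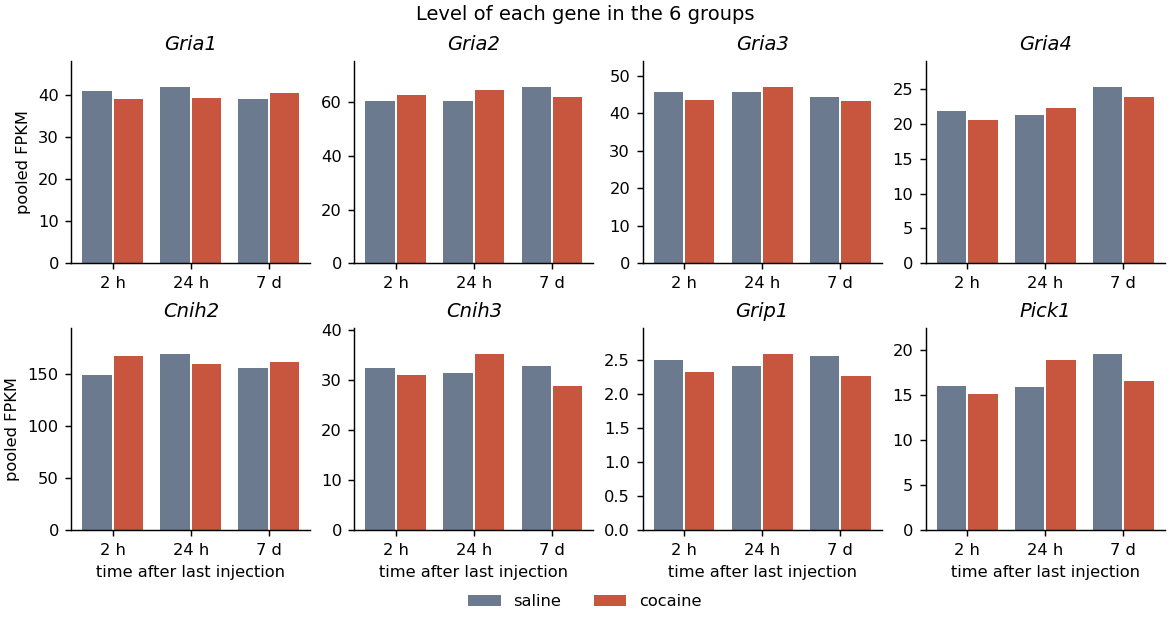
Pooled FPKM (y axis, from 0, a separate scale for each gene) of the 8 genes in saline and cocaine groups at 2 h, 24 h and 7 d (x axis). Each bar is 1 pooled value with no error bar. Saline and cocaine bars stand close at each time, and Pick1 has its highest cocaine bar at 24 h (18.9 FPKM) and its highest saline bar at 7 d (19.6 FPKM).

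Cocaine and saline were compared at each time point by the log2 ratio of their FPKM, to ask whether the genes of the receptor changed after repeated cocaine. The largest of the 24 ratios was 1.19-fold. On the log2 scale they ran from -0.24 to 0.25, and 18 of them were under 0.1 in size. A ratio past 0.25 in size (1.19-fold) was found for 1 gene at 1 time, Pick1 at 24 h. Among all genes kept, 11% were higher and 7.44% lower by that size at 2 h. At 24 h 6.35% were higher and 5.43% lower, and at 7 d 8.7% were higher and 12.4% lower. The median size of the ratio over the 8 genes was 0.07, 0.09 and 0.08 at the 3 times in order, and over all genes kept it was 0.11, 0.08 and 0.13. All of the 8 but Grip1 lay above 10 FPKM. Among genes of mean FPKM 10 or more the median size was 0.08, 0.06 and 0.11. Past 0.25 in either direction were 8.17%, 5.04% and 16.6% of those genes.

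Gria2, the subunit that limits calcium entry, had 60.25 FPKM after saline and 62.77 after cocaine in the 2 h groups. In the 24 h groups it had 60.24 after saline and 64.51 after cocaine, and in the 7 d groups 65.45 after saline and 61.89 after cocaine. The cocaine value was thus the higher one at 2 h and 24 h and the lower one at 7 d, with log2 ratios of 0.06, 0.10 and -0.08. The highest of the 6 values was in saline at 7 d, and the 3 saline values lay 0.12 apart on the log2 scale, more than any of the 3 ratios.

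Gria1, whose product enters synapses during potentiation, followed the opposite course. The saline groups had 40.83, 41.74 and 39.02 FPKM at 2 h, 24 h and 7 d, the order in which 3 values are given from here on, and the cocaine groups 39.04, 39.17 and 40.4. The log2 ratios were -0.06, -0.09 and 0.05, each within the saline range of 0.10. The authors' table marks the 2 h locus of Gria1 as failed in their comparison, so its values there come from a locus that their software did not test.

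Gria3, whose product joins GluA2 in receptors that cycle at the synapse, had 45.5, 45.54 and 44.36 FPKM in the saline groups. The cocaine groups had 43.46, 46.84 and 43.31. Its 3 saline values were the closest together of the 8 genes, 0.04 apart on the log2 scale. Its log2 ratios were -0.07, 0.04 and -0.03, so those at 2 h and 24 h were larger than the saline range.

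Gria4 was the least abundant subunit gene. Its saline groups had 21.82, 21.31 and 25.22 FPKM and its cocaine groups 20.58, 22.23 and 23.83. Both values at 7 d were above all 4 values of the earlier times, and the saline range was 0.24. The log2 ratios, -0.08, 0.06 and -0.08, were all smaller than that range.

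The subunit mixture was nearly the same in the 6 groups. The summed level of the 4 subunit genes lay between 165.8 FPKM (cocaine, 2 h) and 174.1 FPKM (saline, 7 d). Gria2 made 35.8%, 35.7% and 37.6% of the sum in the saline groups and 37.9%, 37.3% and 36.5% in the cocaine groups. Gria1 made 24.3%, 24.7% and 22.4% after saline and 23.5%, 22.7% and 23.9% after cocaine. The ratio of Gria1 to Gria2 was accordingly 0.678, 0.693 and 0.596 after saline and 0.622, 0.607 and 0.653 after cocaine. On the log2 scale cocaine differed from saline by -0.12, -0.19 and 0.13 in this ratio. The cocaine value was the lower one at the first 2 times and the higher one at 7 d, and the lowest of the 6 was in saline at 7 d.

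**Figure D2:**
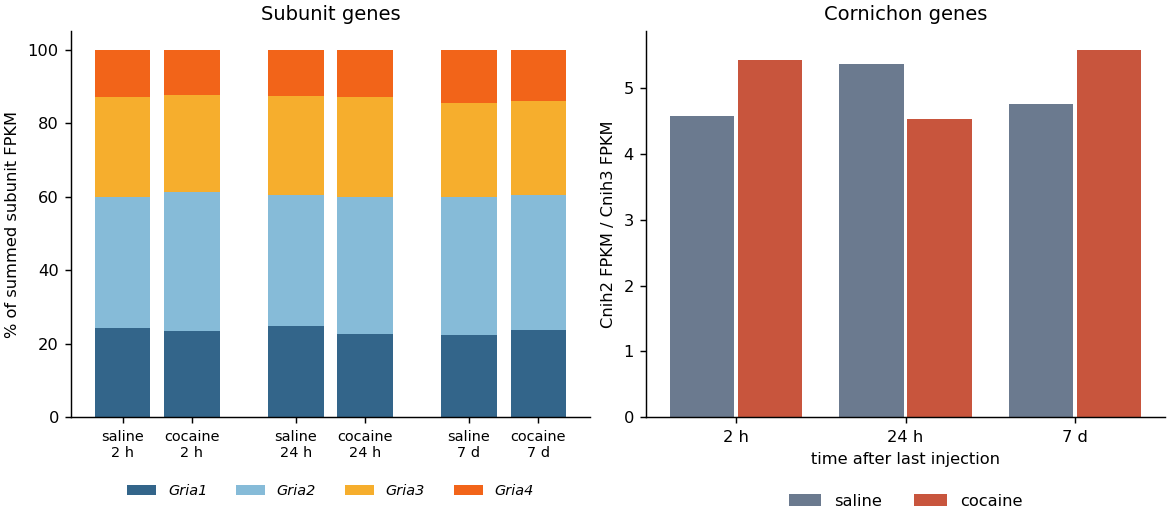
Left, share of each subunit gene in the summed FPKM of Gria1 to Gria4 (y axis, percent) in the 6 groups (x axis); right, ratio of Cnih2 to Cnih3 FPKM (y axis, from 0) in saline and cocaine at each time (x axis), 1 pooled value a bar. The Gria2 share stays between 35.7% and 37.9%, and the cornichon ratio is higher in cocaine at 2 h and 7 d and lower at 24 h.

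Cnih2 and Cnih3, the cornichon genes, differed in opposite directions at every time. Of the 12760 genes kept in all tables, 14.1% had the directions of Cnih2 and 14% those of Cnih3. The share of gene pairs with opposite directions throughout was not computed. Cnih2 had 148.4, 169 and 155.7 FPKM in the saline groups and 167.4, 159.3 and 161 in the cocaine groups. Its log2 ratios were 0.17, -0.09 and 0.05, and its saline values alone lay 0.19 apart. Cnih3 had 32.45, 31.45 and 32.74 FPKM after saline and 30.88, 35.15 and 28.81 after cocaine. Its log2 ratios were -0.07, 0.16 and -0.18, against a saline range of 0.06, so that its cocaine values lay both above and below all 3 saline values. A ratio at least as large was found for 25.2% of the genes kept at 24 h and for 34.2% at 7 d. The ratio of Cnih2 to Cnih3 was 4.57, 5.38 and 4.76 in the saline groups and 5.42, 4.53 and 5.59 in the cocaine groups. These are log2 differences of 0.25, -0.25 and 0.23, beside saline values that ranged from 4.57 to 5.38. A second 7 d entry of Cnih3, with the same coordinates, was at 1.43 FPKM after saline and 1.32 after cocaine and was not added. Nor was a small separate Cnih3 locus at 24 h, at 0.4924 FPKM after saline and 0.7035 after cocaine. The Cnih3 locus used ended at position 181460641 at 2 h and 24 h and at 181462669 at 7 d.

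Pick1, the gene of the endocytic PDZ protein, had the largest ratios of the 8 at 24 h and 7 d, whereas at 2 h Cnih2, Grip1 and Gria4 had larger ones. The saline groups had 15.96, 15.85 and 19.56 FPKM in order of time, and the cocaine groups 15.15, 18.92 and 16.6. Cocaine was 1.19 times saline at 24 h (log2 ratio 0.25), and 11.5% of the genes kept had a ratio at least as large. Among genes of mean FPKM 10 or more, as Pick1 is, 5.04% were past 0.25 at 24 h. At 7 d the log2 ratio was -0.24, a size that 23.6% of genes reached. The high value lay in cocaine at 24 h and in saline at 7 d, and the 3 saline values were themselves 0.30 apart on the log2 scale, more than either ratio. The 24 h ratio fell to the other side of 0.25 when ratios were centred on the median of all genes and when the median of genes of like length was subtracted (0.24).

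Grip1, the gene of the other PDZ scaffold, had the lowest levels. They were 2.491, 2.412 and 2.553 FPKM after saline and 2.321, 2.585 and 2.266 after cocaine. The log2 ratios were -0.10, 0.10 and -0.17, beside a saline range of 0.08. The ratio of Pick1 to Grip1 was 6.41, 6.57 and 7.66 after saline and 6.53, 7.32 and 7.33 after cocaine, the 2 h saline group being the lowest.

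**Figure D3:**
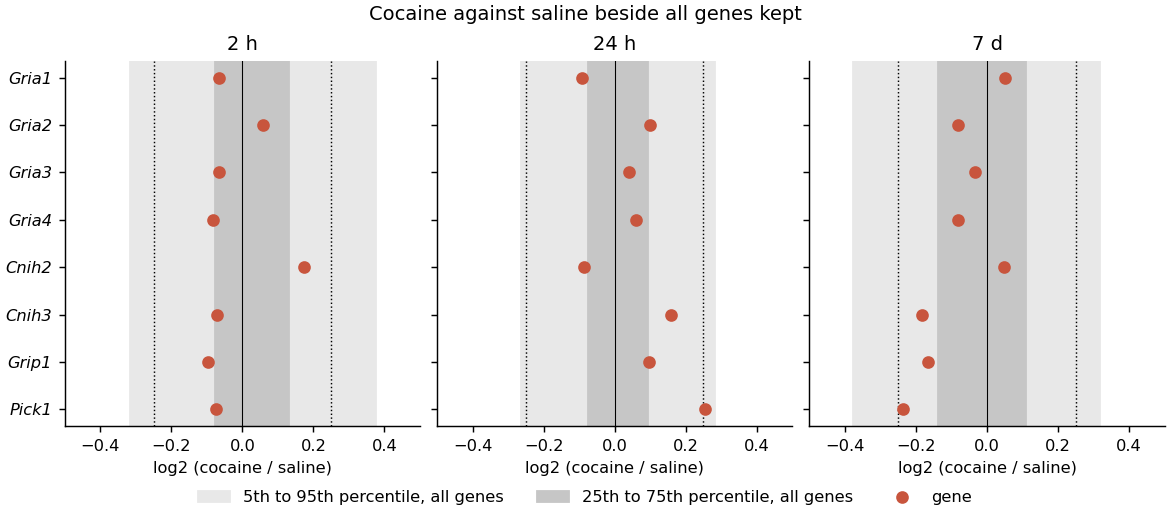
Log2 ratio of cocaine to saline FPKM (x axis) of each of the 8 genes (y axis) at 2 h, 24 h and 7 d; dark and light bands hold the central 50% and 90% of all genes kept, and dotted lines mark 0.25. All 8 points lie inside the light band at each time, and 5, 2 and 5 of them inside the dark band at 2 h, 24 h and 7 d.

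Read over the 3 times, 0 of the 8 genes had the same direction throughout, where 33.5% of the 12760 genes kept in all tables did. The 3 saline and 3 cocaine values overlapped in all 8, and 7.91% of all genes kept had no overlap. For Gria3, Cnih3 and Grip1 the largest ratio exceeded the range of the saline values, which was so for 44.3% of all genes. In 5 genes, Gria3, Gria4, Cnih3, Grip1 and Pick1, cocaine was lower at 2 h, higher at 24 h and lower at 7 d, an order that 14% of all genes had. This shared order was noticed after the values were seen. The genes of 1 table come from the same libraries, and so 5 genes with 1 order are not 5 independent observations. The median log2 ratio of the 8 was -0.07, 0.08 and -0.08 at the 3 times, and that of all genes was 0.02, 0.01 and -0.01.

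Transcript length moved with the ratios and is given beside them, since the subunit transcripts are long. The longest transcripts of Gria1 to Gria4 run from 5192 to 6955 nt, Grip1 has 4996, Cnih3 2668, Pick1 2415 and Cnih2 1237. In 20 groups of all genes by length, the median log2 ratio at 7 d went from -0.23 in the shortest to 0.14 in the longest group. The corresponding medians were 0.01 and 0.08 at 2 h, and -0.03 and 0.03 at 24 h. At 7 d the long subunit genes therefore lay below genes of their own length. With the median of the length group subtracted the 7 d log2 ratio was -0.21 for Gria2, -0.11 for Gria3, -0.15 for Gria4 and -0.04 for Gria1. It was -0.24 for Grip1, -0.20 for Pick1, -0.16 for Cnih3 and 0.17 for Cnih2. By this measure 7 of the 8 genes were below their length group at 2 h and at 7 d and 2 were at 24 h, and 0 were past 0.25 at any time. Since a median was subtracted, about as many of all genes lie below their group as above it. Past 0.25 by this measure were 15.2%, 9.3% and 13% of all genes with a known length. The sign turned for Gria2 at 2 h (0.06 to -0.02) and for Gria1 at 7 d (0.05 to -0.04). The part of length in the ratios was not tested.

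**Figure D4:**
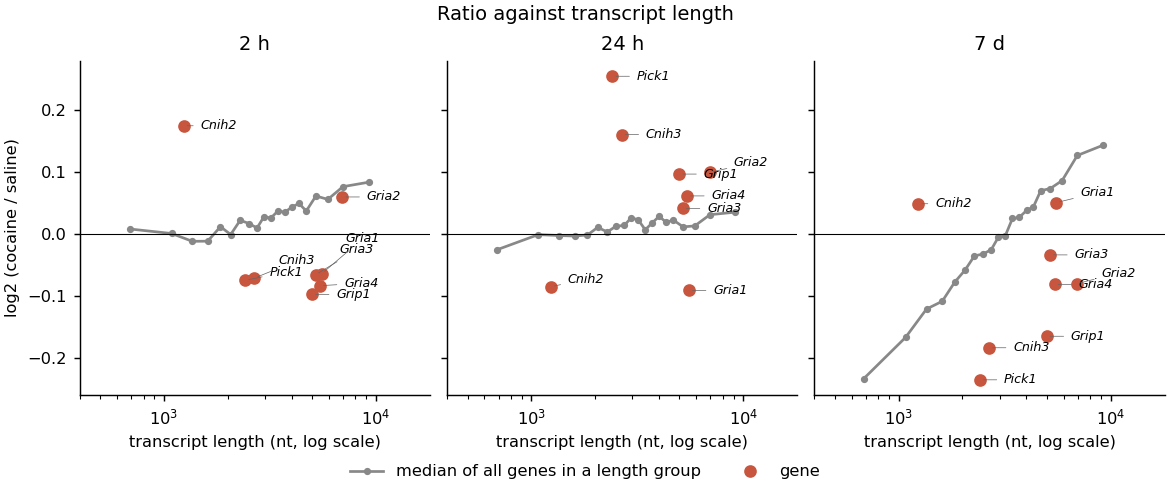
Log2 ratio of cocaine to saline (y axis) against the length of the longest transcript (x axis, nt, log scale) at 2 h, 24 h and 7 d; the line joins the medians of 20 length groups of all genes kept and the points are the 8 genes. At 7 d the line climbs from -0.23 to 0.14, and Cnih2 is the single point above it.

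The neighbours of the receptor were read from a list of 31 other genes that assemble, cluster, anchor or edit it. Of these, 30 were found and 29 were kept at all times, 25 of which were never past 0.25. The other 4 were past it at 1 time each. At 2 h Nptx1, a secreted pentraxin that gathers AMPA receptors at synapses, was higher, with 51.86 FPKM after saline and 68.7 after cocaine, a log2 ratio of 0.40. Abhd6, a serine hydrolase that limits surface delivery of the receptor, was higher at 2 h too, at 22.73 and 27.42 FPKM (0.27). At 24 h Nptx2, the activity-induced pentraxin also called Narp, was lower, with 23.11 FPKM after saline and 18.12 after cocaine (-0.35). At 7 d Cacng5, a low-level member of the TARP auxiliary subunits, was higher, at 0.896 and 1.209 FPKM (0.39). The counts by time were 2 higher and 0 lower of 30 kept at 2 h, 0 higher and 1 lower of 29 at 24 h, and 1 higher and 0 lower of 29 at 7 d. Among all genes kept the shares higher and lower were 11% and 7.44%, 6.35% and 5.43%, and 8.7% and 12.4%.

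In each of these 4 genes 1 group stood apart from the other 5. These genes were picked for a large ratio at 1 time, and that choice itself favours genes with 1 outlying group. How many of all genes have such a group was not computed, so the count of 4 has nothing to be set against. Nptx1 lay between 44.8 and 52.2 FPKM outside the 2 h cocaine group. Nptx2 lay between 18.1 and 20.4 FPKM outside the 24 h groups, and it was the 24 h saline value that stood above the other 5. Abhd6 outside the 2 h cocaine group was between 20.4 and 22.7 FPKM in the other 5 groups. Cacng5 lay between 1.209 and 1.446 FPKM outside the 7 d saline group, which was the lowest of the 6. Each of these groups is 1 pooled value.

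The TARP genes, whose products carry the receptor to the synapse and hold it to PSD-95, had median log2 ratios of 0.06, -0.06 and 0.11 over 6 genes. The medians of the 7 intracellular scaffold and trafficking genes were -0.01, -0.02 and 0.04. Both RNA editing enzymes on the list, named after their values were seen, were higher in cocaine at all 3 times, as were 19.1% of all genes. Adarb1, the enzyme that edits the Q/R site of Gria2, had 27.2, 27.62 and 23.31 FPKM after saline and 27.89, 28.28 and 27.46 after cocaine. Adar had 25.97, 25.57 and 22.82 FPKM after saline and 27.4, 28.21 and 24.81 after cocaine. None of these 6 ratios was past 0.25, the largest being 0.24 for Adarb1 at 7 d, where the saline value was the lowest of the 6. Of the 29 genes kept at all times 9 were higher and 3 lower in cocaine throughout, or 41.4%, beside the 33.5% of all genes. Among the 9 are Nptxr and Shisa7, whose values belong to loci shared with other genes. The Nptxr locus is also named for Cbx6 and Npcd, and the Shisa7 locus for Isoc2b. The locus of the scaffold gene Epb41l1 is also named for Aar2 at 2 h and 24 h. By direction, 19.1% of all genes were higher and 14.4% lower throughout.

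**Figure D5:**
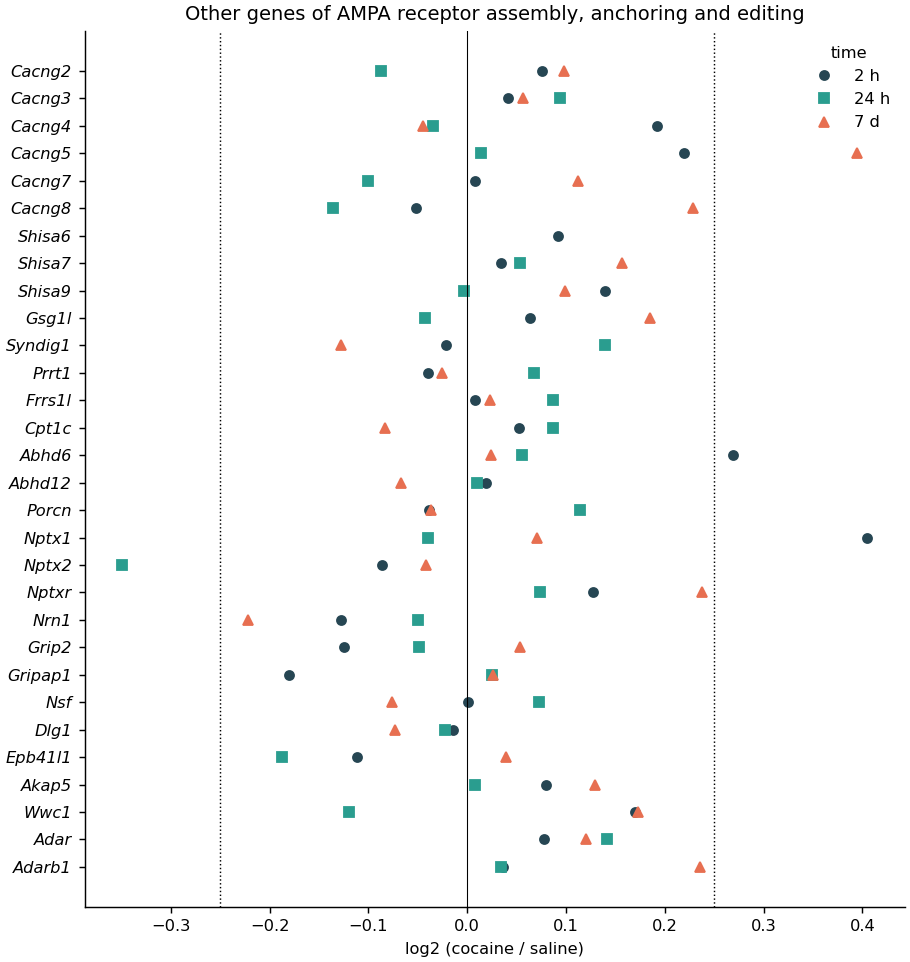
Log2 ratio of cocaine to saline (x axis) of 30 listed genes (y axis) at 2 h, 24 h and 7 d, where the gene was kept; dotted lines mark 0.25. The 4 points outside the lines are Nptx1 and Abhd6 at 2 h, Nptx2 at 24 h and Cacng5 at 7 d.

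The genes nearest to each subunit in pattern were taken by the root mean square difference of the 6 log2 values, each gene centred on its own mean, among 12502 genes. For Gria2 they were Gfer (0.01) and Cog5 (0.01), for Gria1 Paip1 and Ssr3 (both 0.02), for Gria3 Acot7 and 1810026J23Rik (both 0.01) and for Gria4 Abcc5 (0.01) and Dnajc9 (0.02). No subunit was among the 2 nearest of another. Since only 2 of 12502 genes were taken for each, this cannot tell whether the subunits share a pattern. The differences printed are the smallest among that many genes.

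The tissue carried the markers of cortex. The summed FPKM of 5 markers of cortical excitatory neurons was 1384 to 1644 in saline and 1548 to 1592 in cocaine, and that of 5 interneuron markers 410.8 to 474 and 390.7 to 465.4. Striatal markers summed to 65.4 to 71.4 in saline and 68.8 to 80.3 in cocaine, and olfactory bulb markers to 6.63 to 7.19 and 6.08 to 7.07. The log2 ratios of the sums at the 3 times were 0.11, -0.06 and 0.16 for excitatory, -0.07, -0.03 and -0.13 for interneuron, 0.17, 0.05 and 0.10 for striatal and -0.19, 0.09 and -0.22 for olfactory bulb markers. The olfactory bulb markers, at sums of 6.08 to 7.19 FPKM, thus had the same lower, higher and lower order as the 5 genes named above. The excitatory markers had the opposite order, as did the astrocyte and microglia markers given below. Of all genes 14% had the first order and 14.1% the opposite one. The 5 oligodendrocyte markers had log2 ratios of their sum of -0.09, -0.27 and -0.02, the 5 red blood cell markers 0.64, 0.14 and 0.23, and the 4 choroid plexus markers -0.87, -0.48 and 2.37, at sums of at most 7.50 FPKM. Astrocyte markers had 0.14, -0.17 and 0.17 and microglia markers 0.10, -0.09 and 0.07. No marker was at 0 in any group. The part of these cell types in the ratios above was not tested, and fewer cells of a type and less RNA per cell cannot be told apart in pooled tissue.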

How the data were processed

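RNA-seq of 12 libraries in 6 groups was used as deposited. Reads had been trimmed by the authors, aligned by TopHat2, assembled and compared by Cuffdiff within each time point. The submitters' processing notes give CASAVA 1.8.2, Trimmomatic 0.32, TopHat2 2.0.12, Cufflinks 2.2.1 and GRCm38, whereas the methods name cutadapt and mm9; the loci matched GRCm38. The deposited values are FPKM, 1 pooled value for each group and locus. The tables also hold the authors' fold changes, test statistics, p-values and q-values, none of which was used. The column names do not say plainly which group is saline. Saline and cocaine were told apart by the levels in the study's supplementary tables, of which 380 of 457, 13 of 14 and 492 of 531 genes were within 2% of the order used and 0 of the reverse order.

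For each gene name the longest locus was taken, and among loci of equal length the one with the higher mean FPKM. The log2 ratio was that of cocaine to saline after adding 0.1 FPKM. Kept were genes of mean FPKM 1 or more with both groups above 0, and a size of 0.25 was used for counts. No test was run, since each group has 1 value. The genes named were the 8 receptor genes, the listed genes past 0.25 at any time and the 2 nearest in pattern for each subunit; Adar and Adarb1 were added after their values were seen. The 8 genes and the lists were chosen with earlier results of these data known. Transcript lengths and sequences were those of GENCODE vM1, found for 86.4%, 85.8% and 85.9% of genes kept at 2 h, 24 h and 7 d, and used with no coordinates; gene positions were those of RefSeq for GRCm38.p6, and starts in the tables were moved to count from 1. Alternatives changed the pseudocount, the scaling, the length trend, the locus, the size and the minimum FPKM. The steps were tested on simulated data with planted ratios and a planted length trend. The planted ratios were larger than any of the 24 given here, so the simulation does not bear on ratios of their size. Python 3.11.15, pandas 2.3.3, numpy 2.4.6 and matplotlib 3.10.9 were used.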

Additional observations from a re-analysis of the deposited data

How the results depend on the processing

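Of 217 values recomputed under an alternative, 201 stayed within 0.1 on the log2 scale or, for counts, within 1.5 times, and 16 moved further; 0 ratios past 0.25 turned sign. That tolerance is larger than 18 of the 24 ratios. The 24 ratios of the 8 genes kept their sign under both other pseudocounts, the centring and the other choice of locus, and 2 turned sign with the length trend taken out (Gria2 at 2 h to -0.02, Gria1 at 7 d to -0.04). The median of the 8 at 7 d then went from -0.08 to -0.16 and that of the listed genes at 24 h from 0.010 to -0.0034. With that trend taken out Gria2 at 7 d went to -0.21 and Cnih2 at 7 d to 0.17. The 1 receptor gene past 0.25 at 24 h, Pick1, became 0 with a pseudocount of 1, with ratios centred, with the length trend taken out and with a size of 0.5. Of all genes at 24 h, 7.36%, 11.7%, 9.3% and 3.03% were past the size in these settings, in that order. At 7 d the count of 0 receptor genes became 1 with a size of 0.2, which 30.6% of all genes reached. Of the 31 listed genes the 2 at 2 h became 1 with ratios centred and 0 with a size of 0.5, and the 1 at 24 h became 0 with a size of 0.5. Of all genes at 2 h, 18.2% were past 0.25 with ratios centred and 4.48% past a size of 0.5. The 1 listed gene at 7 d became 0 with a pseudocount of 1, a size of 0.5 or a minimum mean FPKM of 5. The count became 2 with the length trend taken out or with no minimum FPKM, and 5 with a size of 0.2. For these counts of receptor and listed genes the cause was not tested. The shares of all genes at 7 d were 14.8% with a pseudocount of 1, 3.83% with a size of 0.5 and 16.6% with a minimum of 5. They were 13% with the length trend taken out, 30% with no minimum FPKM and 30.6% with a size of 0.2. Alternatives chosen after seeing the data were a minimum mean FPKM of 10 and centred values for the counts by saline range and by overlap. With centred values the count of receptor genes past their saline range went from 3 to 4. The count of those without overlap of saline and cocaine values stayed at 0. Among all 12760 genes these centred counts were 5651 and 1155. No paired analysis was possible because each group has 1 pooled value and the columns carry no replicate number, and for the same reason no replicate could be left out. No counting error was computed, since the tables give no counts.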
